A study of Mus musculus with 6 samples.

Results

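The 10 genes described here encode transcription factors of naive pluripotency, the ground state of mouse embryonic stem cells: Nanog, Klf2, Klf4, Klf5, Esrrb, Tfcp2l1, Tbx3, Zfp42, Nr0b1 and Nr5a2. They were taken by gene symbol from a deposited table of 31265 genes, and all 10 were found. Poly(A) RNA was sequenced from E14Tg2a cells, a wild-type mouse embryonic stem cell line that the design text calls clonal and that carried the redox sensor Grx1-roGFP2 in the nucleus. All cells had grown with serum, LIF and the 2i inhibitors, and then for 5 days as embryoid bodies without LIF and 2i. Live cells, negative for propidium iodide, were sorted by the sensor ratio, and the 10% at its oxidized end and the 10% at its reduced end were kept from each of 3 populations (A, B and C), in all 3 oxidized and 3 reduced libraries. The question put to these genes is how far the naive network differs between the ends of the redox range. The labels leave unsaid how the populations were set up, and p-values therefore measure only the spread from one population to another.

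Naive pluripotency is kept by a network of factors that activate one another and repress differentiation. LIF acts through STAT3 to sustain Klf4 and Tfcp2l1, and inhibition of GSK3 relieves Esrrb, Nanog, Klf2 and Nr0b1 from repression by Tcf7l1. When LIF and 2i are withdrawn the network is dismantled, and cells pass through a formative state before they choose a lineage, while Pou5f1 and Sox2 stay on for longer. Several of these factors are used again elsewhere, such as Klf2 and Klf4 in endothelium, Klf5 in epithelia, Tbx3 in cardiac mesoderm and extraembryonic endoderm, Nr5a2 in endoderm and Nanog in early germ cells.

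The members did not share a single pattern. Tfcp2l1, Zfp42, Esrrb and Nr5a2 had lower values in oxidized than in reduced cells in all 3 populations, though Zfp42 in C only narrowly (56.0 against 56.5 FPKM). This direction in all 3 populations was not particular to the members. It was found for 16.4% of the 12191 genes in the main test, Tfcp2l1 and Zfp42 among them. Esrrb and Nr5a2 were too low for that test. Nanog and Klf5 were high in the oxidized cells of A and B and low in the oxidized cells of C. Klf2, Klf4 and Nr0b1 went in different directions in different populations, and Tbx3 was nearly level. In bulk libraries of sorted cells, fewer cells of a type and less RNA per cell cannot be told apart. In limma's test over all genes, on log2(FPKM + 1) with genes of a mean of at least 1 FPKM, 0 of the 8 members that passed this filter had a Benjamini-Hochberg adjusted p under 0.05, where 0.796% of all 12191 tested genes did (97 genes, 63 higher and 34 lower in oxidized cells). Tfcp2l1 and Zfp42, 2 of the 8, had an unadjusted p under 0.05, as did 2371 of the tested genes. Median-ratio scaling split the calls into 58 higher and 50 lower genes, and quantile normalization into 54 and 51.

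The libraries were not alike in ways that bear on these values. FPKM is a fragment number divided by transcript length and scaled to the library. The size of the smallest FPKM steps gave estimated depths of 1.2e+07 to 1.82e+07 fragments, with the libraries of population C the shallowest at 1.2e+07 and 1.27e+07. These depths are rough. They come from a search within a set range, and only 31.0% to 34.8% of low values fell on whole steps. A locus annotated as ribosomal RNA, CT010467, held 0.405% and 0.533% of all FPKM in the oxidized libraries of A and B and 9.66% to 12.3% in the other 4 libraries. The mitochondrial transcript mt-Co3 was at 2710 and 1525 FPKM in the oxidized libraries of A and B and at 112 to 199 FPKM in the others. These features separate oxidized A and B from oxidized C, as Nanog and Klf5 also do, but the place of oxidized C differs. It lay within the reduced range for mt-Co3 and above it for CT010467, and below every reduced library for Nanog and Klf5. The part of these features in the results for the members was not tested. The median difference of all tested genes, oxidized minus reduced, was 0.08 on the log2 scale.

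**Figure D1:**
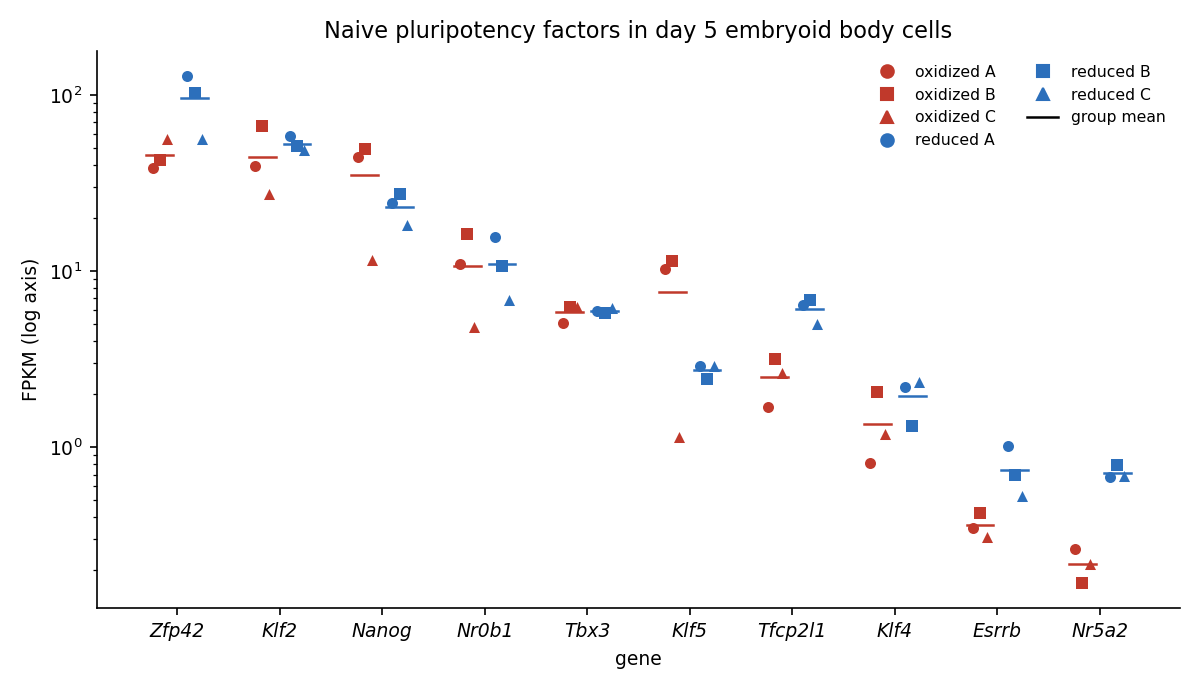
FPKM of the 10 factors in each library (log axis), with red for oxidized and blue for reduced cells, a marker shape for each population and a short line for the mean of 3 libraries. The oxidized points lie below the reduced points for Tfcp2l1, Esrrb, Nr5a2 and, narrowly, Zfp42, and oxidized C lies far below oxidized A and B for Nanog and Klf5.

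The levels, which FPKM gives per transcript length, spanned a wide range. In reduced cells Zfp42 was the most abundant, at 95.7 ± 36.2 FPKM (SD, n = 3), followed by Klf2 at 52.7 ± 5.01 FPKM, Nanog at 23.2 ± 4.62 FPKM and Nr0b1 at 11.0 ± 4.36 FPKM. Tfcp2l1 at 6.09 ± 0.963 FPKM and Tbx3 at 5.97 ± 0.204 FPKM came next, ahead of Klf5 at 2.75 ± 0.260 FPKM and Klf4 at 1.96 ± 0.553 FPKM. Esrrb and Nr5a2 were at the bottom, at 0.747 ± 0.246 and 0.719 ± 0.0672 FPKM. Of neighbours in this order, Zfp42 and Klf2, Nr0b1 and Tfcp2l1, Tfcp2l1 and Tbx3, and Esrrb and Nr5a2 had overlapping ranges. In oxidized cells the order by mean was Zfp42, Klf2, Nanog, Nr0b1, Klf5, Tbx3, Tfcp2l1, Klf4, Esrrb and Nr5a2. There Tbx3 stood clear of Tfcp2l1, Klf4 of Esrrb and Esrrb of Nr5a2, and the ranges of all other neighbours overlapped. Nr5a2 was again the lowest, at 0.218 ± 0.0469 FPKM.

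Tfcp2l1 is a grainyhead-like factor that lies downstream of LIF and STAT3 and can sustain self-renewal (chr1:118627945-118685168, mm10). It was at 1.70, 3.16 and 2.66 FPKM in the oxidized libraries of A, B and C and at 6.38, 6.88 and 5.02 FPKM in reduced A, B and C. The groups did not overlap, and the mean was 2.43-fold lower in oxidized cells. The log2 difference was -1.03 (SE 0.21, limma adjusted p = 0.0666, n = 3 each), which misses the threshold. Quantile normalization put it past the threshold (adjusted p = 0.0442; 1 of 8 members, where 0.861% of genes were called), as did leaving out oxidized C (0.0204) or both libraries of C (0.00460), in a range of 0.00460 to 0.254 over all alternatives.

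Zfp42, also called Rex1, is a zinc finger protein whose loss marks the exit from the naive state (chr8:43295063-43306980). It was at 38.4, 42.5 and 56.0 FPKM in the oxidized libraries of A, B and C and at 128, 103 and 56.5 FPKM in reduced A, B and C. The groups stayed apart only by the small gap between the 2 libraries of population C, whose reduced level was 2.04-fold below the mean of reduced A and B. Within populations the reduced cells held 3.33-fold more Zfp42 in A, 2.42-fold more in B and 1.01-fold more in C. The log2 difference over all libraries was -0.99 (SE 0.29, limma adjusted p = 0.138). It was -1.15 without oxidized C (adjusted p = 0.0431) and -1.48 without both libraries of C (3.66e-04), in a range of 3.66e-04 to 0.534 over all alternatives. A processed copy, Zfp42-ps1, holds 9.2% of the 50-base stretches of the Zfp42 transcript, so fragments may be divided between them.

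Esrrb and Nr5a2 are orphan nuclear receptors that bind DNA as monomers, and both can replace other factors in reprogramming or self-renewal. Esrrb (chr12:86361117-86521628) was at 0.348, 0.422 and 0.311 FPKM in the oxidized libraries of A, B and C and at 1.01, 0.697 and 0.531 FPKM in reduced A, B and C. Nr5a2 (chr1:136842571-136960448) was at 0.265, 0.171 and 0.218 FPKM against 0.674, 0.797 and 0.687 FPKM. For both genes every reduced library was above every oxidized one. The mean of Nr5a2 was 3.30-fold lower in oxidized cells, the widest ratio among the 10 members, and that of Esrrb 2.07-fold lower.

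Neither receptor reached a mean of 1 FPKM, so they were not in the main test. In the exact permutation test, two-sided over 3 against 3 libraries, Esrrb and Nr5a2 each had p = 0.1, the smallest p this design allows. In the fit with no filter on low values the log2 difference of Nr5a2 was -0.50 (SE 0.09, limma adjusted p = 0.216) and that of Esrrb -0.35 (SE 0.14, adjusted p = 0.395), on a scale that understates changes at low levels. The values rest on few fragments. From the estimated depth and the longest transcript, Nr5a2 had about 12 to 20 fragments per oxidized library and about 41 to 65 per reduced one, and Esrrb about 16 to 28 and about 29 to 79.

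These are 4 of 10 members whose groups did not overlap with oxidized cells lower, where 6.47% of the 28179 genes with any value above 0 met that rule. Of the 8 members past the filter it was 2, where 8.81% of the tested genes met it. The authors' deposited table marks Tfcp2l1 (q = 3.70e-05), Nr5a2 (q = 6.60e-04) and Zfp42 (q = 0.00738) as significantly lower in oxidized cells, 3 of 10 members. It marks 1.94% of all its genes as significant and 0.704% as significantly lower. In the authors' deposited table Esrrb has q = 0.0751, and the other 6 members have q-values of 0.556 to 0.929. That table marks only rows with q under 0.05 and a fold change of at least 2, and its test is not named in its headers.

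**Figure D2:**
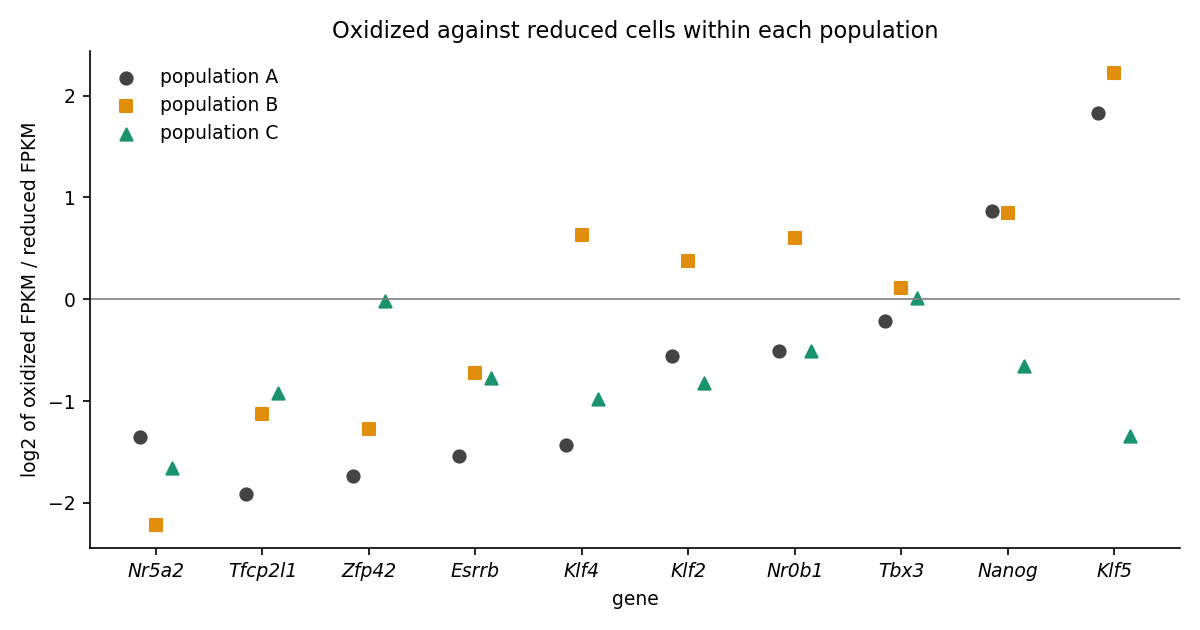
Log2 of the ratio of oxidized to reduced FPKM within populations A, B and C for each factor, ordered from Nr5a2 to Klf5. Nr5a2, Tfcp2l1 and Esrrb lie below 0 in all 3 populations, while Nanog and Klf5 lie above 0 in A and B and below 0 in C.

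Nanog is the homeodomain factor whose level fluctuates between stem cells and that shields them from differentiation (chr6:122707489-122714633). It was at 44.3 and 49.0 FPKM in the oxidized libraries of A and B and at 11.5 FPKM in oxidized C. Reduced A, B and C held 24.2, 27.2 and 18.2 FPKM, so oxidized A and B were above every reduced library and oxidized C was below every one. The ratio of oxidized to reduced FPKM was 1.83 in A, 1.80 in B and 0.635 in C.

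Klf5 is a Krüppel-like factor of pluripotent cells, trophectoderm and epithelia (chr14:99298691-99315036). It was at 10.3 and 11.4 FPKM in the oxidized libraries of A and B, at 1.15 FPKM in oxidized C, and at 2.89, 2.45 and 2.91 FPKM in reduced A, B and C. The reduced libraries lay close together, and the oxidized ones lay on both sides of them. Oxidized A and B together were 9.45-fold above oxidized C for Klf5 and 4.04-fold above it for Nanog. The ratio of oxidized to reduced Klf5 was 3.56 in A, 4.66 in B and 0.395 in C.

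Over all 6 libraries the log2 differences of Nanog (0.35, SE 0.47, limma adjusted p = 0.707) and Klf5 (0.84, SE 0.58, adjusted p = 0.444) were not called. Without oxidized C, which left only A and B in the oxidized group, they were 0.99 (adjusted p = 0.0175) and 1.66 (0.00119). Without both libraries of C, which left only A and B in each group, they were 0.83 (0.0180) and 1.69 (1.36e-04). Oxidized C was the library that departed from A and B for both genes. The small p-values without it follow in part from leaving it out and are no separate support. With oxidized C as the only oxidized library, the differences turned to -0.93 and -0.80. Over all alternatives the adjusted p of Nanog ranged from 0.0175 to 0.997 and that of Klf5 from 1.36e-04 to 0.782. Without oxidized C, 4 of 8 members were called (Nanog and Klf5 higher, Tfcp2l1 and Zfp42 lower in oxidized cells), where 9.87% of all tested genes were, and without both libraries of C the count was again 4, where 12.9% of genes were.

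The pattern of Nanog and Klf5, higher in oxidized cells of A and B and lower in those of C, was shared by 15.5% of all tested genes. Oxidized C was the lowest of the 6 libraries for 5 of the 10 members (Nanog, Klf2, Klf5, Esrrb and Nr0b1), where 21.2% of tested genes had their lowest value there. Esrrb was not among the tested genes. In population A 8 members had lower values in oxidized cells, in B 4 and in C 9, where 41.8%, 39.6% and 49.9% of tested genes did. These member counts include Esrrb and Nr5a2, which were too low for the main test. Both were lower in oxidized cells in A, B and C and so raise each count. The median log2(FPKM + 1) difference of the 10 members was -0.51 in A, 0.23 in B and -0.54 in C, beside 0.09, 0.14 and 0.00025 for all tested genes. The member medians include Esrrb and Nr5a2 as well, so the sets of genes compared were not filtered alike.

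Promoter sequence was read for 8 of the 10 members, in 11 windows from 250 bases before to 50 after a start site (RefSeq, GRCm38.p6). Klf5 and Tbx3 had no entry. The stretches below show Nanog and Zfp42, which differed in direction in A and B, and Tfcp2l1, whose direction was that of Zfp42. Capitals mark a joined octamer and Sox element in Nanog (TTTGCAT and ACAATG with 1 base between them, the kind bound by Pou5f1 with Sox2), the octamer core alone in Zfp42 (TTTGCAT) and a pair of Klf boxes in Tfcp2l1 (CCACNCCC). All motifs were searched on both strands.
Nanog: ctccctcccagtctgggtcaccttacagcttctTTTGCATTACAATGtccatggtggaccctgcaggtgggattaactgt
Zfp42: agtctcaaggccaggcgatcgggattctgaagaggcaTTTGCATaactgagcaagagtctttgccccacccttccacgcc
Tfcp2l1: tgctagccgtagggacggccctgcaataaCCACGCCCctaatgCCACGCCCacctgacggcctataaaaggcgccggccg
The Nanog stretch is chr6:122707381-122707460 on the plus strand, the Zfp42 stretch chr8:43307152-43307231 on the minus strand and the Tfcp2l1 stretch chr1:118627855-118627934 on the plus strand.

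The joined element was in 2 of all 32851 promoter windows (0.00609%), both of them overlapping windows of Nanog. The octamer core, which the joined element contains, was in 4.63% of windows and, among the members, in those of Nanog and Zfp42. The Klf box was in 17.6% of windows and in those of 4 members, Nanog, Nr5a2, Tfcp2l1 and Zfp42. The monomer element of orphan nuclear receptors (AAGGTCA, in 4.72% of windows) and a Stat site (TTCCNGGAA, in 1.15%) were in 0 of the 11 windows of the members. Nanog and Zfp42 each had an octamer core and a Klf box in these windows. These matches are letters only, no binding was measured, and their relation to the oxidized to reduced ratios was not tested.

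Klf2 and Klf4 belong to the same Krüppel-like family as Klf5, bind similar GC-rich sites and are partly redundant with it in stem cells. Klf2 (chr8:72319033-72321656) was at 39.6, 66.2 and 27.5 FPKM in the oxidized libraries of A, B and C and at 58.4, 50.9 and 48.9 FPKM in reduced A, B and C. Klf4 (chr4:55527143-55532466) was at 0.815, 2.05 and 1.19 FPKM against 2.20, 1.33 and 2.35 FPKM. For both, oxidized cells were lower in A and C and higher in B, and the groups overlapped. The log2 differences were -0.33 for Klf2 (SE 0.28, limma adjusted p = 0.546) and -0.35 for Klf4 (SE 0.24, adjusted p = 0.445). Single libraries set the size of both: Klf2 was at -0.04 without oxidized C and at -0.65 without oxidized B, and Klf4 at -0.18 without oxidized A and at -0.55 without oxidized B, none of them called.

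Klf2 made up most of the summed FPKM of Klf2, Klf4 and Klf5 in every library. Its share was 78.1% and 83.1% in oxidized A and B and 90.3% to 93.1% in the other 4 libraries. The share of Klf5 was 20.3% and 14.3% in oxidized A and B and 3.84% to 5.37% elsewhere, while Klf4 stayed at 1.61% to 4.34%. The sum itself was 50.7, 79.7 and 29.9 FPKM in the oxidized libraries of A, B and C and 63.5, 54.7 and 54.1 FPKM in reduced A, B and C, so it was lowest in oxidized C.

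**Figure D3:**
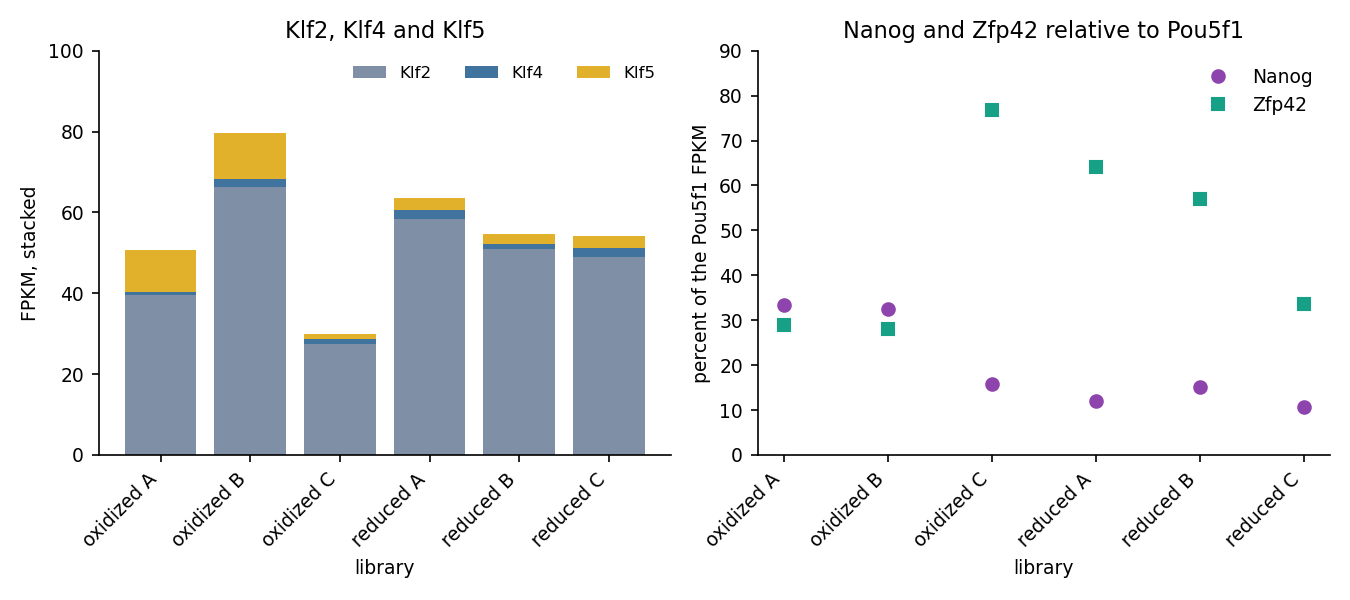
Left, stacked FPKM of Klf2, Klf4 and Klf5 in each library, and right, the FPKM of Nanog and Zfp42 as a percentage of that of Pou5f1 in the same library. Klf5 takes 20.3% and 14.3% of the bars of oxidized A and B, and in these libraries Nanog and Zfp42 stand at similar percentages, whereas Zfp42 stands above Nanog in the other 4.

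Nr0b1, or Dax1, is an atypical nuclear receptor that lacks a classical DNA-binding domain and interacts with Pou5f1 and Nr5a2 (chrX:86191764-86195947). It was at 10.9, 16.2 and 4.83 FPKM in the oxidized libraries of A, B and C and at 15.6, 10.7 and 6.86 FPKM in reduced A, B and C. Both libraries of population C were below the other 4. The log2 difference was -0.11 (SE 0.40, limma adjusted p = 0.897), and it turned to 0.32 without oxidized C and to 0.15 without reduced A, neither called.

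Tbx3, a T-box factor that acts downstream of PI3 kinase in stem cells (chr5:119670669-119684724), varied least. It was at 5.07, 6.27 and 6.24 FPKM in the oxidized libraries of A, B and C and at 5.90, 5.81 and 6.20 FPKM in reduced A, B and C. Its log2 difference was -0.03 (SE 0.15, limma adjusted p = 0.936), and its sign changed when oxidized A was left out. The spread over reduced libraries was 3.42% of the mean, the smallest of the 10 members.

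Pou5f1 and Sox2, the core factors shared by all pluripotent states, give a scale for the members. Pou5f1 was at 132, 151 and 73.0 FPKM in the oxidized libraries of A, B and C and at 199, 180 and 168 FPKM in reduced A, B and C (limma adjusted p = 0.209). Sox2 was at 41.6, 61.1 and 39.5 FPKM against 68.6, 63.7 and 50.9 FPKM (adjusted p = 0.352). Nanog came to 33.4% and 32.5% of the Pou5f1 level in oxidized A and B, to 15.8% in oxidized C and to 10.8% to 15.1% in reduced cells, so relative to Pou5f1 oxidized C was just above the reduced libraries. Zfp42 came to 29.0% and 28.2% of Pou5f1 in oxidized A and B, to 76.7% in oxidized C and to 64.1%, 57.0% and 33.6% in reduced A, B and C. Tfcp2l1 was at 1.28% and 2.09% of Pou5f1 in oxidized A and B and at 2.98% to 3.82% in the other 4 libraries, oxidized C among them at 3.64%. Relative to Pou5f1, then, oxidized C lay with or near the reduced libraries for Tfcp2l1, and above them for Zfp42. Pou5f1 itself was lower in every oxidized library than in any reduced one, as were 8.81% of the tested genes. This raises the percentages in all oxidized libraries, A and B included, and most in oxidized C, where Pou5f1 was lowest at 73.0 FPKM. In FPKM, oxidized C was below every reduced library for Nanog, Tfcp2l1 and, narrowly, Zfp42.

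Correlations among members over the 6 libraries, which share the library as a common source, are given as a description. Nanog and Klf5 had Pearson r = 0.94, Esrrb and Zfp42 0.91, Tfcp2l1 and Nr5a2 0.88 and Tfcp2l1 and Zfp42 0.87. Klf5 and Zfp42 had r = -0.59 and Nanog and Zfp42 -0.31. Outside the members, the genes most like Nanog were Mcl1 (r = 0.993), which encodes an anti-apoptotic Bcl2 relative, Abhd10 (0.991) and Aatf (0.991), and 62 of 7091 genes had r above 0.95. Those most like Tfcp2l1 were Srpk1, a kinase of splicing factors (0.990), Gm5801 (0.988) and Nmt1, an N-myristoyltransferase (0.979). Those most like Zfp42 were Fam83d (0.994), Nipsnap1 (0.993) and Rbm28 (0.988).

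Most of the tested genes among others high in naive cells had lower values in oxidized cells. Of 19 such genes outside the members, 16 were tested, 15 had negative differences and 1 was called. Their median log2 difference was -0.52, beside 0.08 for all tested genes. Of the 3 under the filter, Gbx2, a homeobox gene, was at 1.46, 1.19 and 0.743 FPKM in the oxidized libraries of A, B and C against 0.540, 0.690 and 0.455 FPKM. Sox21, a Sox family repressor, was at 0.495, 1.04 and 0.567 FPKM against 0.0441, 0.0653 and 0.157 FPKM. Both were higher in every oxidized library than in any reduced one, the opposite of Esrrb and Nr5a2, while the groups of Klf17 overlapped. Among the tested genes, to which Gbx2 and Sox21 do not belong, 16.2% met that rule. Both genes were low and were picked after their values were seen. The elongation factor gene Tcea3 fell, from 21.4, 17.9 and 15.6 FPKM in reduced A, B and C to 9.52, 8.26 and 6.06 FPKM (log2 difference -1.12, limma adjusted p = 0.0481; 0.0665 with the population as a block). Dppa3, a maternal factor also expressed in germ cells, was at 124, 107 and 91.8 FPKM in the oxidized libraries of A, B and C against 167, 171 and 160 FPKM (adjusted p = 0.114). Dppa5a, the most abundant of these genes, was at 1390, 1066 and 477 FPKM against 1601, 1702 and 1583 FPKM (adjusted p = 0.232).

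Among 10 core and general pluripotency genes, 8 had negative differences and 2 were called lower, with a median of -0.37. Tdgf1, the Nodal co-receptor Cripto, fell by 1.58 on the log2 scale (limma adjusted p = 0.0323; 0.0564 with the block), and Dppa2, a chromatin factor, fell by 1.44 (0.0287; 0.0613 with the block). Of 17 formative and primed genes, which come on as the naive network is lost, 16 were tested, 10 had positive differences and 0 were called, with a median of 0.21. Sall2, a zinc finger factor, was at 3.39, 4.86 and 3.16 FPKM in the oxidized libraries of A, B and C and at 1.496, 1.69 and 1.43 FPKM in reduced A, B and C (adjusted p = 0.0681), and Cdh2, or N-cadherin, at 8.29, 8.29 and 6.44 FPKM against 3.43, 3.75 and 3.88 FPKM (0.0545).

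Upstream of the members, 0 of 11 tested genes of the LIF and STAT3 pathway were called, 6 with positive and 5 with negative differences, and the median was 0.01. The LIF receptor gene Lifr was at 2.45, 3.25 and 3.57 FPKM in the oxidized libraries of A, B and C and at 5.03, 5.07 and 3.72 FPKM in reduced A, B and C (limma adjusted p = 0.230). Bcl3, a STAT3 target and atypical IkB protein, went the other way, with 5.23, 6.35 and 2.77 FPKM against 1.66, 1.57 and 2.99 FPKM (adjusted p = 0.152). Pim3, a kinase gene and the most abundant of the list, was at 86.0, 117 and 80.4 FPKM against 123, 103 and 103 FPKM (0.531), so the genes of this pathway had no common direction. Of 16 regulators of the exit from the naive state, 9 had positive differences and 0 were called, with a median of 0.15. Tcf7l1, the repressor of the naive network that GSK3 inhibition relieves, was at 28.6, 37.8 and 17.5 FPKM against 13.8, 12.3 and 16.04 FPKM (adjusted p = 0.134). Every oxidized library was above every reduced one, though narrowly in C, and 16.2% of all tested genes met that rule. Ctnnb1, or beta-catenin, was at 121, 147 and 49.9 FPKM against 58.8, 61.7 and 54.8 FPKM (0.304), so that oxidized A and B were above and oxidized C below the reduced range, as for Nanog and Klf5.

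**Figure D4:**
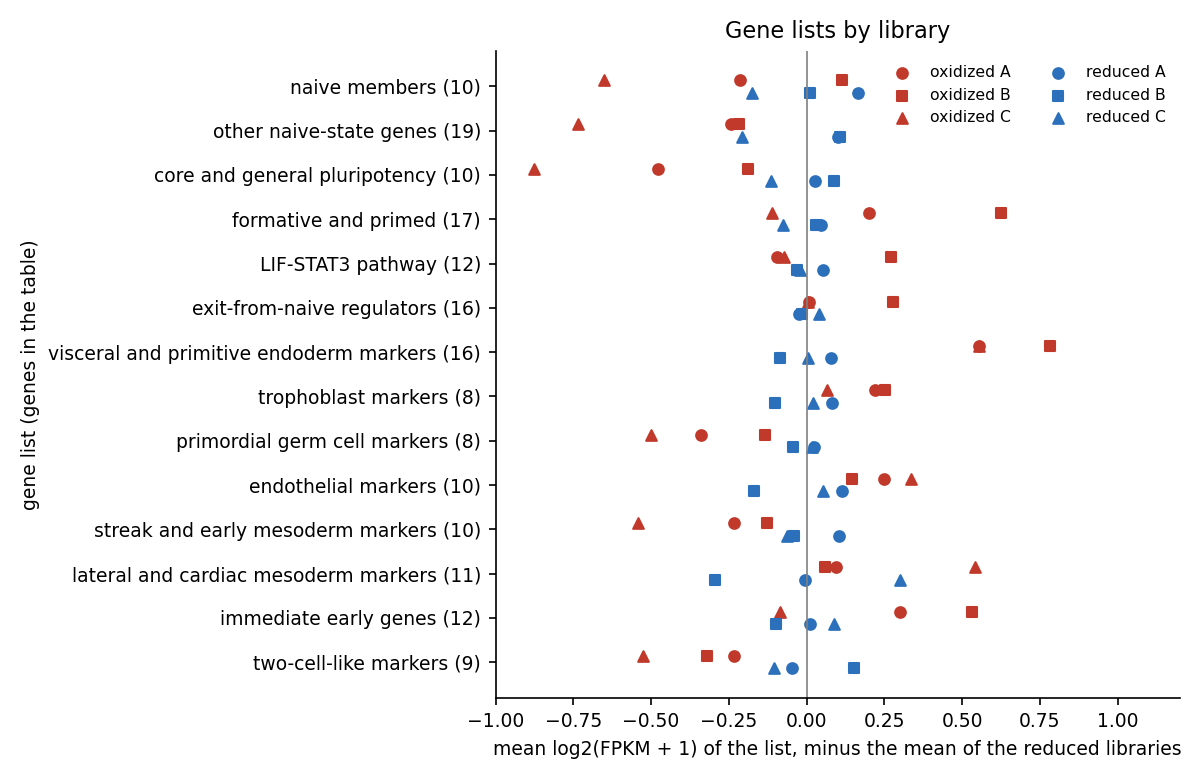
Mean log2(FPKM + 1) of each gene list in each library, minus the mean of the 3 reduced libraries, with the number of genes in brackets. The other naive-state, core, germ cell, streak and two-cell-like lists lie lower in all 3 oxidized libraries than in any reduced library. The endoderm and endothelial lists lie higher there, and oxidized C is the lowest of the 6 for the 10 members.

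Markers of other cell types that embryoid bodies can hold had summed levels that differed between the groups for some lists and overlapped for others, and their part in the members' values was not tested. The 16 visceral and primitive endoderm markers summed to 40.3 to 50.6 FPKM in oxidized and 17.9 to 22.4 FPKM in reduced libraries, and 10 of 11 tested had positive differences with 0 called. Ttr, a transthyretin gene, was at 2.36, 3.05 and 1.25 FPKM against 0.447, 0.371 and 0.236 FPKM (limma adjusted p = 0.0599). Foxa2 was at 1.75, 2.39 and 2.53 FPKM in the oxidized libraries of A, B and C against 0.871, 0.653 and 0.333 FPKM (limma adjusted p = 0.0613). No gene of the trophoblast, lateral and cardiac mesoderm or endothelial lists was called. The 8 trophoblast markers summed to 170 to 233 FPKM against 91.9 to 139 FPKM, mostly Hand1, which lateral mesoderm also expresses. The 11 lateral and cardiac mesoderm markers, Hand1 among them, summed to 226 to 249 against 112 to 199 FPKM. Hand1 alone was at 188, 154 and 127 FPKM in the oxidized libraries of A, B and C against 81.8, 62.9 and 97.6 FPKM. The mean log2(FPKM + 1) of the lateral and cardiac list overlapped between the groups, at 2.58 to 3.06 against 2.23 to 2.82. That of the trophoblast list overlapped too. The 10 endothelial markers summed to 43.2 to 52.4 against 31.9 to 44.3 FPKM, with overlap.

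The 8 germ cell markers summed to 32.8 to 42.9 FPKM in oxidized and 47.9 to 63.8 FPKM in reduced libraries, and the RNA helicase gene Ddx4 fell by 1.06 on the log2 scale (limma adjusted p = 0.0466; 0.0782 with the block). The 10 streak and early mesoderm markers summed to 65.1 to 84.0 against 109 to 126 FPKM. Of the 8 tested, 7 had negative differences and 1, brachyury (T), was called. T was lower by 1.53 on the log2 scale, and lower in 3 of 3 populations (limma adjusted p = 0.0158, and 0.0601 with the block). The widest gaps between group means were those of Fgf8 (32.4 against 53.2 FPKM) and T (4.51 against 14.7 FPKM). The mean of Gsc was higher in oxidized cells (3.50 against 2.73 FPKM). So were those of Tbx6 (0.751 against 0.166 FPKM) and Lhx1 (1.09 against 0.903 FPKM), which were not tested. The 12 immediate early genes summed to 426, 514 and 368 FPKM in the oxidized libraries of A, B and C and to 295 to 375 FPKM in reduced cells, so the groups overlapped through oxidized C, and 0 of 11 tested were called. Of the 9 two-cell-like markers 6 were under 1 FPKM in every library. Of the 2 tested, Zscan4f, 1 of a family of near-identical genes, was listed at 0 in the 3 oxidized libraries and at 2.03, 2.97 and 1.64 FPKM in reduced A, B and C (limma adjusted p = 0.0158; 0.0595 with the block). The other, Eif1a, had 54.6, 44.8 and 12.7 FPKM in the oxidized libraries of A, B and C, against 12.8, 14.1 and 13.1 FPKM (adjusted p = 0.205). No list had a marker at 0 in all 6 libraries.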

How the data were processed

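The authors deposited 1 table with an FPKM value per gene and library, a ratio of group means (fc), its log2, and a p-value and q-value of their own test, per the file headers. Tools named in the submitters' processing notes, with no version, are HISAT2 and StringTie, besides edgeR, cutadapt and FastQC, and the build is mm10. The authors' fold change equals the ratio of mean FPKM, and the log2 column is its log2. Library preparation kept the strand, per the labels' protocols; the sources used here do not give how the counting treated strand or multiple matches.

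FPKM are not counts, so limma 3.58.1 (R 4.3.3) was fitted to log2(FPKM + 1) with the group alone and a mean-variance trend, on the 12191 genes whose mean was 1 FPKM or more, Benjamini-Hochberg adjusted, two-sided, and tested on simulated data. Only 31.0% to 34.8% of low FPKM values per library were whole multiples of 1 fragment, within 2%, so reads were not recovered. Members and lists were chosen with earlier results of these data known. From each other list, genes could be named if among the 2 with the smallest p or the most abundant; which of these are printed was decided with their values known. Gbx2, Sox21 and Klf17 were chosen after their values were seen. Genes named in the closing section were chosen after their values were seen, as were CT010467 and mt-Co3. The column letters, not in the sample titles, pair the libraries by population, per the design text: the 2 libraries of A deviated from their group means with r = -0.06, those of B with 0.07 and those of C with 0.20, against -0.17 to 0.13 between letters, so the pairing is weak in the data. Positions are from GENCODE vM21 (mm10).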

Additional observations from a re-analysis of the deposited data

How the results depend on the processing

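With the population as a replicate block, 4 genes were called in place of 97, and 0 members. It ended the calls of Tcea3, Tdgf1, Dppa2, Ddx4, T and Zscan4f and changed no other call on a gene named in the text. The number of genes called was 1 with no filter on low values, 3 to 1204 when 1 library was left out (1204 without oxidized C, 3 without oxidized A or reduced B, 4 without oxidized B or reduced A), 1572 without both libraries of population C and 11 without oxidized A and B together, an alternative chosen after seeing the data. The number of members called was 1 with quantile normalization (Tfcp2l1), 0 to 4 when 1 library was left out and 4 without both libraries of C. The median member difference of -0.22 ranged from -0.51 (without oxidized B) to -0.05 (without oxidized C) when 1 library was left out. It was -0.07 without both libraries of C, -0.07 with a minimum mean of 5 FPKM and -0.85 without oxidized A and B. Leaving out 1 library, the log2 difference of Nanog ranged from -0.0046 to 0.99, that of Tbx3 from -0.072 to 0.058 and that of Nr0b1 from -0.46 to 0.32. Without oxidized A and B, Nanog was at -0.93, Klf5 at -0.80 and Tbx3 at 0.054, and without both libraries of C Nr0b1 was at 0.044. Tfcp2l1 kept a negative sign in 14 of 14 alternatives, Zfp42 and Klf2 in 15 of 15 each, Klf4 in 14 of 14, and Esrrb and Nr5a2 in 13 of 13 each with no filter. For Tfcp2l1, Zfp42, Esrrb and Nr5a2, whose groups did not overlap, leaving out libraries could not change the sign. The alternatives on the filter, the trend and the block left the differences themselves unchanged. These counts of signs were therefore in part set in advance. The cause of the changes between settings was not tested. Depth limits Esrrb and Nr5a2, which rest on few fragments.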

Other observations

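Zfp57, a zinc finger protein that guards imprints and is high in naive cells, was at 1.05 and 1.53 FPKM in the oxidized libraries of A and B and at 7.80 FPKM in oxidized C, against 5.13, 5.91 and 7.07 FPKM in reduced A, B and C (limma adjusted p = 0.301). Oxidized C was thus the highest of the 6 libraries for Zfp57 and the lowest for Nanog and Klf5. Mybl2, a cell cycle transcription factor, was at 52.8 and 64.1 FPKM in the oxidized libraries of A and B, 20.3 FPKM in oxidized C and 33.2 to 48.1 FPKM in reduced cells (adjusted p = 0.935).

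The processed copy Zfp42-ps1 was at 18.0, 19.9 and 13.2 FPKM in the oxidized libraries of A, B and C and at 31.5, 36.6 and 24.3 FPKM in reduced A, B and C. Its groups did not overlap, and in population C, where Zfp42 itself was nearly level, the copy was lower in oxidized cells.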
